A study of Drosophila melanogaster with 12 samples.

Results

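Myc and 8 genes of nucleolar ribosome biogenesis (Fib, Nop56, nop5, Nopp140, Nop60B, Tif-IA, pit and Ns1) were followed across the 4 groups of larval salivary glands of the series. These 9 genes were chosen by name, out of 13825 genes to which the deposited transcripts were summed. The rule itself uses no measured value, but the choice was made with earlier results of these data known. In each group 3 replicates were sequenced as poly(A)-selected RNA at 96 hr after egg deposition (AED). The mothers of all 4 groups, including the control, carried the Bx-Gal4 driver in a w1118 background. Per the labels they also carried a Drs-GFP reporter in all groups, whereas the study's list of crosses gives this reporter only for the crosses with the l(2)gl RNAi. If the list applies, the reporter and the RNAi label cannot be told apart. The fathers were w1118 for the control (w1118-glands), carried UAS-RasV12, a constitutively active form of the small GTPase Ras, for RasV12-glands, and carried UAS-RasV12 together with UAS-l(2)glRNAi, directed at a polarity gene, for lglRNAi;RasV12-glands. Larvae grew at 29°C on food with antibiotics. Entire glands were used for these 3 groups (30 pairs per replicate), and the fourth group consists of the isolated proximal parts of lglRNAi;RasV12-glands (PP, 60 pairs per replicate), which the labels call posterior. The Bx enhancer trap drives expression across the secretory epithelium of the gland. Proximal parts of control glands were not analysed here. In the comparison of the PP with w1118-glands, the effect of the genotype and that of the gland part therefore cannot be told apart.

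Myc is a transcription factor that binds DNA as a dimer with Max and promotes cell growth in larval tissues, including the endoreplicating salivary gland, where it is known to drive the expression of ribosome biogenesis genes. Ribosomes are assembled in the nucleolus. RNA polymerase I transcribes the precursor of the ribosomal RNA, small nucleolar ribonucleoproteins (snoRNPs) of the box C/D class methylate it and those of the box H/ACA class convert uridines to pseudouridines, and helicases and GTPases then remodel the pre-ribosomal particles. The members cover these steps. Tif-IA recruits RNA polymerase I to the ribosomal genes, Fib (fibrillarin) is the methyltransferase of the box C/D snoRNPs and Nop56 and nop5 are their core proteins, Nop60B is the pseudouridine synthase of the box H/ACA snoRNPs, Nopp140 is a phosphoprotein that escorts both classes, pit (pitchoune) is a DEAD-box RNA helicase, and Ns1 (nucleostemin 1) is a GTPase needed for the large ribosomal subunit.

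In the dm6 assembly, Myc (FBgn0262656) lies on the plus strand of chromosome X, from 3373159 to 3391697. Tif-IA (FBgn0032988) lies on the plus strand of 2L, from 22249876 to 22258260, and nop5 (FBgn0026196) on the minus strand of 2L, from 6916753 to 6918743. Fib (FBgn0003062) lies on the minus strand of 2R, from 23072909 to 23074725, and Nop60B (FBgn0259937) on the plus strand of 2R, from 24174877 to 24186343. Nopp140 (FBgn0037137) lies on the plus strand of 3L, from 21832774 to 21836685. On 3R, Nop56 (FBgn0038964) lies on the minus strand from 22419095 to 22421068, pit (FBgn0266581) on the plus strand from 22034298 to 22038925, and Ns1 (FBgn0038473) on the minus strand from 17070523 to 17072675. The library kit does not mark strand, and 3 of the members share exonic bases with other genes. Myc shares 3754 of its 9170 exonic bases with CG12535 on the opposite strand, which stayed between 0.575 and 3.25 CPM in all libraries. It shares 1859 bases with lncRNA:CR44999 on its own strand, which had no entry among the summed genes. Reads of this RNA from the shared bases could therefore not be told apart from those of Myc. Nopp140 shares 21 of its 3232 exonic bases with P5CDh1 on the opposite strand, whose level of 138 to 283 CPM was above that of Nopp140. Nop60B hosts several snoRNAs within its longest transcript.

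Each library held between 27584224 and 73043536 estimated counts in all, and the members had between 195 and 10008 counts per library, so that counting alone limited none of them. Levels are given as counts per 1000000 (CPM) normalized by TMM, a scaling that assumes that most genes do not differ between libraries. Differences are log2 fold changes from edgeR's quasi-likelihood test over 9012 genes, and "higher" or "lower" as a call means a Benjamini-Hochberg adjusted p of at most 0.05. The test gives no standard error (SE). The SE printed is the size of the log2 fold change over the square root of the test's F statistic, with the spread estimated over all 12 libraries. The scaling bears on the comparisons with w1118-glands. The 20 genes with the highest counts took 39.8% to 47.3% of the counts in w1118-glands and 19.3% to 24.1% elsewhere, and without TMM the median log2 fold change of all genes to the controls was 0.42 for RasV12 alone, 0.43 for entire glands labelled lglRNAi;RasV12 and 0.56 for the PP instead of -0.00, 0.02 and 0.10. Ras85D, whose count includes the transgene, was at 63.9 ± 10.5 CPM in w1118-glands and between 2042 and 3454 CPM in the 9 other libraries. Its mean was 3112 CPM with RasV12 alone, 2330 CPM in entire glands labelled lglRNAi;RasV12 and 2670 CPM in the PP. Between the 2 groups of entire glands with RasV12, its levels did not overlap (log2 fold change -0.42, SE 0.14), without a call (adjusted p = 0.0667 in edgeR's test). The part of this difference in the levels of Myc was not tested. The RNAi target l(2)gl did not separate the RNAi libraries from the control. Its level was 162 ± 25.1 CPM in the controls, 265 ± 20.9 CPM with RasV12 alone, 167 ± 22.0 CPM in the libraries labelled lglRNAi;RasV12 and 244 ± 37 CPM in those labelled PP (SD, n = 3 each). Thus l(2)gl was lower than in RasV12-glands in the entire glands labelled lglRNAi;RasV12 (log2 fold change -0.66, SE 0.14, adjusted p = 0.0132 in edgeR's test), it was not lower than in w1118-glands (0.05, adjusted p = 0.81), and in the PP it was higher than in w1118-glands (0.59, adjusted p = 0.00399). Whether reads of the RNAi construct were counted as l(2)gl could not be checked. The study reports that the construct worsened the loss of cell integrity seen with RasV12. Every statement below on the 2 groups with the RNAi label, also where they are called glands with both constructs, therefore refers to libraries by their labels, and "the controls" are w1118-glands throughout. Per the study's methods the replicates were separately dissected biological replicates. Whether they came from separate crosses is not given in the sources used here, and p-values measure the spread between these samples.

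**Figure D1:**
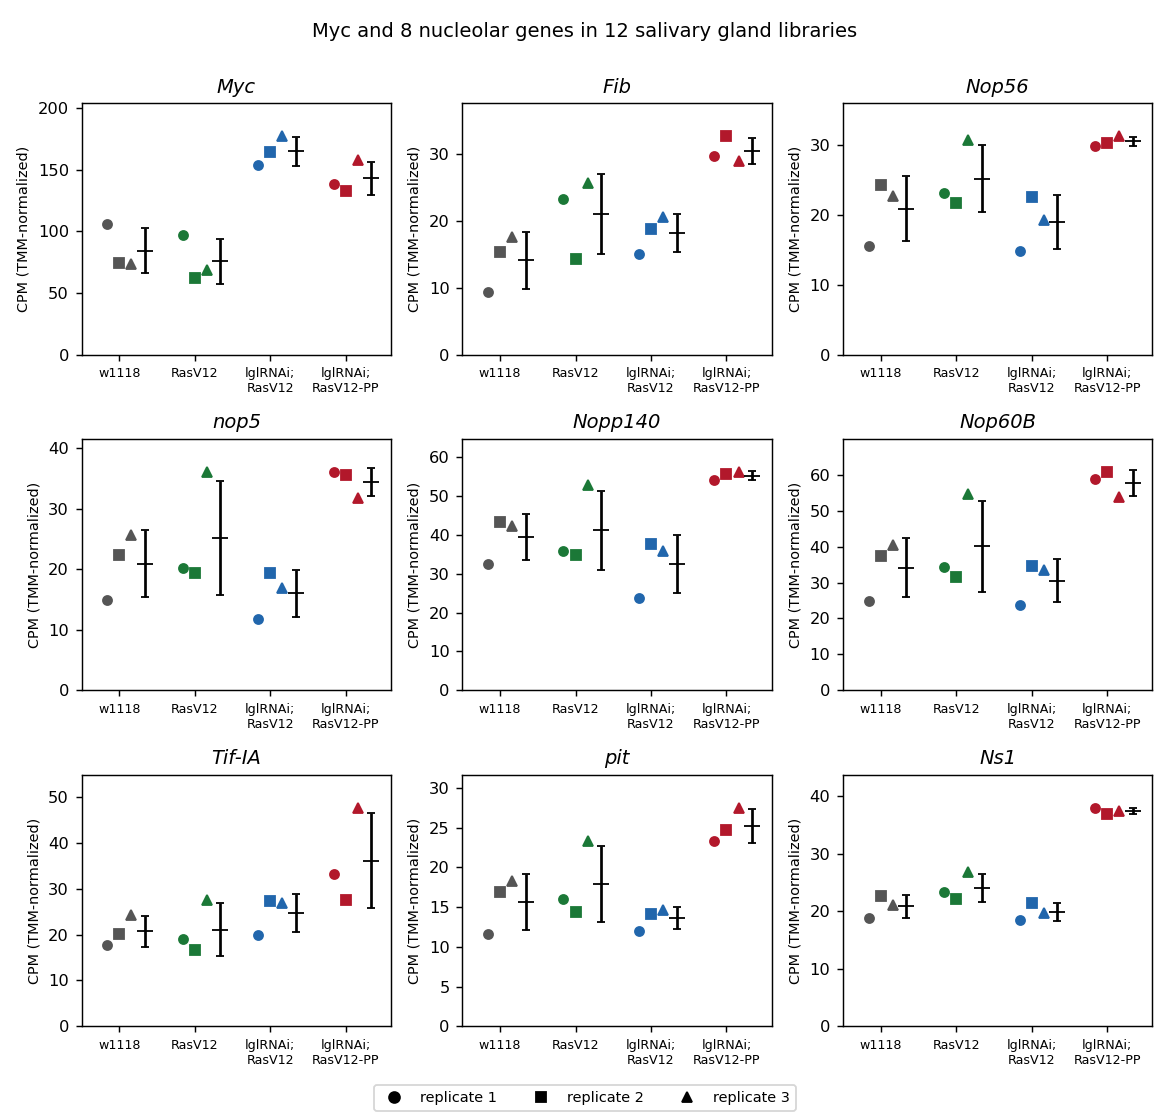
TMM-normalized CPM of Myc and the 8 nucleolar genes (y axes from 0) in the 12 libraries, by group on the x axis. Symbols mark replicates 1, 2 and 3, and the bar beside each group is the mean ± SD (n = 3). Myc was between 133 and 177 CPM in the 6 libraries labelled lglRNAi;RasV12 and PP and at most 106 CPM in the other 6, whereas Ns1 was between 36.9 and 38.0 CPM in the PP and at most 26.8 CPM in all other libraries.

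Myc and the nucleolar genes separated the groups in different ways. Myc was higher in both groups labelled with the l(2)gl RNAi, entire glands and PP, than in w1118- and RasV12-glands. With TMM, the 8 nucleolar genes were called higher than in w1118-glands in the PP and in neither group of entire glands. Of them, 7 were also higher in the PP than in the entire glands of the same genotype, between which Myc was not called different. The calls depend on scaling and on single libraries. With library size in place of TMM, Fib, Nop56, Nop60B, pit and Ns1 were also called higher with RasV12 alone. Fib, Tif-IA and Ns1 were then called in entire glands labelled lglRNAi;RasV12. With 1 library left out, 5 to 8 of the 9 members were called in the PP against w1118-glands.

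The controls had 106, 73.9 and 73.3 CPM of Myc in replicates 1, 2 and 3, and the RasV12-replicates 96.6, 61.7 and 68.4 CPM. In the libraries labelled lglRNAi;RasV12 it was at 153, 164 and 177 CPM, and in those labelled PP at 138, 133 and 158 CPM. Both groups with the RNAi label thus lay above both groups without it, the RasV12-replicates lay within or below the range of w1118-glands, and the PP overlapped with the entire glands of its genotype. Compared to w1118-glands, the log2 fold change of Myc by edgeR's test was -0.16 (SE 0.18, adjusted p = 0.485) with RasV12 alone, 0.97 (SE 0.18, adjusted p = 0.000796) in the entire glands and 0.76 (SE 0.18, adjusted p = 0.00307) in the PP labelled with the RNAi. Compared to RasV12-glands it was 1.13 (SE 0.18, adjusted p = 0.00265) in lglRNAi;RasV12-glands and 0.92 (SE 0.18, adjusted p = 0.00202) in the PP by the same test. Between PP and entire glands labelled lglRNAi;RasV12, Myc differed by -0.21 (SE 0.18, adjusted p = 0.378). These 4 calls on Myc held under every alternative tried, including those without TMM and those that left out 1 library. The deposited files carry a number of unknown meaning that lglRNAi;RasV12-glands share with RasV12-replicate 1 but with no w1118-replicate. Among the libraries that share it, Myc was at 96.6 CPM in RasV12-replicate 1 and between 153 and 177 CPM in lglRNAi;RasV12-glands, whereas in the comparison with w1118-glands this number and the genotype cannot be told apart.

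Per length of transcript, Myc had the highest mean level of the members in every group except RasV12-glands, where Nop60B was above it within the spread. These levels are TPM, transcripts per 1000000, which are comparable between genes within a group but are not TMM-normalized. In w1118-glands Myc was at 14.3 ± 1.87 TPM (SD, n = 3), beside Nop60B at 13.8 ± 4.44 TPM, from which it did not differ beyond the spread. Nopp140 (8.91 ± 2.15), Nop56 (8.66 ± 2.78), nop5 (8.32 ± 2.83), Fib (8.16 ± 3.08), Ns1 (7.81 ± 1.60) and Tif-IA (6.77 ± 1.59) followed within their spread of each other, and pit was lowest at 4.76 ± 1.504 TPM. In RasV12-glands Nop60B led with 25.4 ± 8.63 TPM, within the spread of Myc at 20.6 ± 5.11 TPM and of Fib at 19.3 ± 6.04 TPM. In the libraries labelled lglRNAi;RasV12, Myc stood apart from all other members with 45.4 ± 1.98 TPM, followed by Nop60B with 20.2 ± 3.49 TPM. In the PP, Myc (34.2 ± 2.92 TPM) and Nop60B (33.1 ± 1.54 TPM) were again level, with Fib next at 25.4 ± 0.102 TPM. The lowest member was pit in each of the 4 groups. Of the transcripts of Myc, Myc-RA took on average between 90.8% and 93.3% of the TPM in each group and the longer Myc-RB the rest, so that the same transcript was predominant in all groups.

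In RasV12-glands none of the 9 members was called higher than in w1118-glands and none lower, where 25.8% of all tested genes were higher and 23.1% lower. Fib, the methyltransferase, came closest, with 9.35, 15.4 and 17.6 CPM in the controls against 23.3, 14.3 and 25.7 CPM. The groups overlapped through RasV12-replicate 2, and the log2 fold change was 0.58 (SE 0.24, adjusted p = 0.0663 by edgeR's test). The call was made when this replicate was left out (0.80, adjusted p = 0.0124 by edgeR's test) or when w1118-replicate 3 was left out (0.76, adjusted p = 0.0406). The other 7 nucleolar genes had log2 fold changes between 0.03 (Tif-IA) and 0.27 (Nop56), and the median of the 8 was 0.22 beside -0.00 over all tested genes. No member was called with a change of at least 2-fold, which 11.3% of all genes passed upwards. The sign of several of these values changed when 1 library was left out or the scaling was changed. Without RasV12-replicate 3, the log2 fold changes of nop5, Nopp140, Nop60B, Tif-IA and pit turned negative (-0.22 for Tif-IA to -0.04 for pit), while those of Fib, Nop56 and Ns1 stayed positive. Without w1118-replicate 1, Nopp140 (-0.06) and Tif-IA (-0.08) turned negative and Myc positive (0.03). Without TMM, 5 members (Fib, Nop56, Nop60B, pit and Ns1) were called higher, and all 9 in the fits on TPM, which are not TMM-normalized either. Myc then also turned positive. Among the libraries that share a file number, that is without RasV12-replicate 1, no member was called either.

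**Figure D2:**
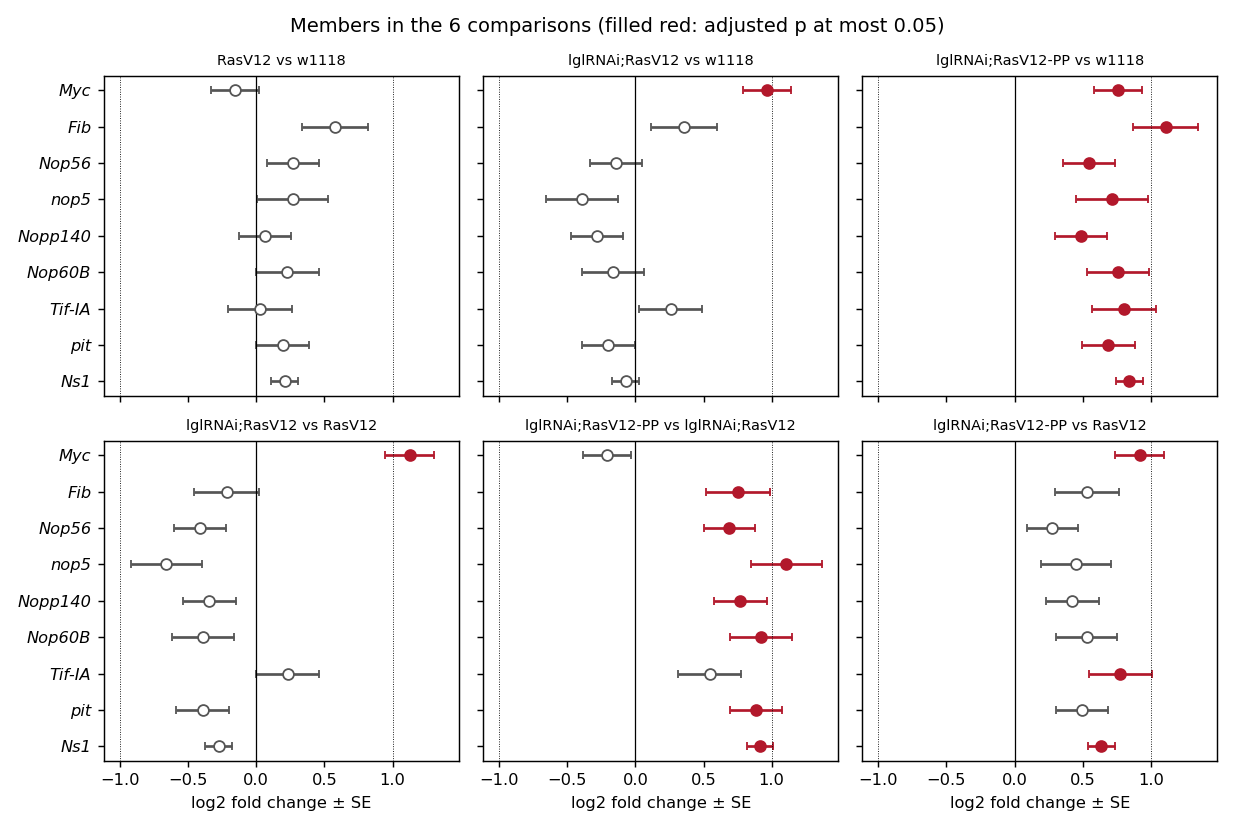
Log2 fold changes (x axis) with their SE for the 9 members (y axis) in the 6 comparisons, from edgeR's fit on all 12 libraries. Filled red points have an adjusted p of at most 0.05, and dotted lines mark a 2-fold change. All 9 points are red for the PP against w1118-glands, and only Myc is red for entire lglRNAi;RasV12-glands against either w1118- or RasV12-glands.

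In the entire glands labelled lglRNAi;RasV12, Myc was the 1 member of 9 called higher than in w1118-glands, where 28.2% of all genes were higher, and no member was called lower, where 23.5% of all genes were. The log2 fold changes of the 8 nucleolar genes lay between -0.39 (nop5) and 0.36 (Fib) with a median of -0.15, beside 0.02 over all genes, and all of them overlapped between the groups. Myc itself stayed just below the 2-fold limit, which 12.1% of all genes passed upwards. The signs of the nucleolar genes depend on the scaling. Without TMM, Nop56, nop5, Nopp140, Nop60B, pit and Ns1 turned from slightly negative to positive, and 4 members (Myc, Fib, Tif-IA and Ns1) were called higher. Compared to RasV12-glands, Myc was again the 1 member called higher (7.18% of all genes) and none was lower (5.12% of all genes), and Myc was the 1 member past the 2-fold limit (2.02% of all genes). The median of the nucleolar genes was -0.37, beside 0.01 over all genes. Without a call, 2 members lay below every RasV12-replicate in every lglRNAi;RasV12-replicate, as did 17.8% of all genes. For nop5, the groups met at 19.3 CPM, with 20.3, 19.3 and 36.0 CPM against 11.8, 19.3 and 16.8 CPM, and the log2 fold change was -0.66 (SE 0.26, adjusted p = 0.121 by edgeR's test). Ns1 was at 23.3, 22.2 and 26.8 CPM against 18.4, 21.5 and 19.7 CPM, and its log2 fold change of -0.28 (SE 0.10) had an adjusted p of 0.0882 by edgeR's test. In the reported fits, Myc in entire lglRNAi;RasV12-glands was therefore above both reference groups without a call for any of the 8 nucleolar genes in either comparison. Against w1118-glands this did not hold without TMM. Against RasV12-glands, Ns1 was called lower with DESeq2 (adjusted p = 0.0347 by its Wald test).

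In the PP, all 9 members were called higher than in w1118-glands, where 33.5% of all genes were higher, and none was lower (25.2% of all genes). In all 9, every PP-replicate also lay above every w1118-replicate, as it did for 36.8% of all genes. The median log2 fold change was 0.76 over the 9 members and 0.74 over the 8 nucleolar genes, beside 0.10 over all genes. Fib alone passed the 2-fold limit, as did 15.7% of all genes. In bulk samples, a change in the number of cells of one type and a change in RNA per cell cannot be told apart.

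Ns1, the GTPase, had the most uniform values. The controls were at 18.8, 22.7 and 21.1 CPM, and the PP-replicates at 38.0, 36.9 and 37.5 CPM. With 23.3, 22.2 and 26.8 CPM for RasV12 alone and 18.4, 21.5 and 19.7 CPM for both constructs, the 3 groups of entire glands lay close together and the PP above them all. The log2 fold change to w1118-glands was 0.84 (SE 0.10, adjusted p = 2.08e-05 by edgeR's test).

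Of the box C/D snoRNP proteins, Fib was at 29.8, 32.7 and 29.0 CPM in the PP, with a log2 fold change of 1.11 (SE 0.24, adjusted p = 0.00189) to w1118-glands by edgeR's test. For Nop56, the values were 15.5, 24.3 and 22.7 CPM in the controls, 23.2, 21.7 and 30.7 CPM with RasV12 alone, 14.9, 22.6 and 19.3 CPM in entire glands with both constructs and 29.9, 30.3 and 31.3 CPM in the PP. One RasV12-replicate thus reached the level of the PP. The difference to w1118-glands was 0.55 (SE 0.19, adjusted p = 0.0265 by edgeR's test). For nop5, the w1118-replicates were at 14.9, 22.3 and 25.6 CPM and the PP-replicates at 36.0, 35.5 and 31.7 CPM, with a log2 fold change of 0.72 (SE 0.26, adjusted p = 0.034 by edgeR's test). RasV12-replicate 3 was again as high as the PP.

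Nop60B, the pseudouridine synthase, was at 24.7, 37.3 and 40.4 CPM in the controls, 34.2, 31.4 and 54.5 CPM with RasV12 alone, 23.7, 34.5 and 33.4 CPM in entire glands with both constructs and 58.8, 60.7 and 53.8 CPM in the PP. Its log2 fold change between PP and w1118-glands was 0.76 (SE 0.23, adjusted p = 0.0136 by edgeR's test). Nopp140, the snoRNP chaperone, was at 32.6, 43.3 and 42.2 CPM in the controls, 35.8, 34.8 and 52.8 CPM with RasV12 alone, 23.8, 37.7 and 35.8 CPM in entire glands with both constructs and 54.0, 55.6 and 56.2 CPM in the PP. It had the smallest difference to w1118-glands, 0.49 (SE 0.19), which was called at the margin (adjusted p = 0.047 by edgeR's test) and lost with the size factors of DESeq2 and without any 1 of the 6 libraries. P5CDh1, which overlaps it, went the other way, with 255 CPM on average in w1118-glands and 162 CPM in the PP.

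For Tif-IA, the RNA polymerase I factor, the w1118-replicates were at 17.7, 20.1 and 24.4 CPM, the RasV12-replicates at 19.1, 16.6 and 27.6 CPM, the lglRNAi;RasV12-replicates at 19.99, 27.4 and 27.0 CPM and the PP-replicates at 33.2, 27.6 and 47.7 CPM. It was the most variable member in the PP. The log2 fold change to w1118-glands was 0.80 (SE 0.23, adjusted p = 0.0112) and fell to 0.56 (adjusted p = 0.0587) without PP-replicate 3 by edgeR's test. The helicase gene pit was at 11.6, 16.9 and 18.3 CPM in the controls, 16.0, 14.4 and 23.3 CPM with RasV12 alone, 12.1, 14.2 and 14.7 CPM in entire glands with both constructs and 23.4, 24.7 and 27.5 CPM in the PP, where its log2 fold change to w1118-glands was 0.69 (SE 0.19, adjusted p = 0.00944 by edgeR's test).

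The count of 9 members in the PP falls when 1 library is left out. Without w1118-replicate 1, which had the lowest level of each of the 8 nucleolar genes in its group, 5 members were called (Myc, Fib, Tif-IA, pit and Ns1), and the log2 fold changes of Nop56, nop5, Nopp140 and Nop60B fell to between 0.37 (Nopp140) and 0.57 (Nop60B). Without PP-replicate 3 also 5 were called, and 6 without PP-replicate 1 or 2, when the calls on Nop56, nop5 and Nopp140 were lost each time. Myc, Fib, pit and Ns1 were called with any of these libraries left out.

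Within 1 genotype, 7 of the 8 nucleolar genes were called higher in the PP than in the entire glands labelled lglRNAi;RasV12, as were 20.0% of all genes, and none was lower (17.7% of all genes). All 8 lay above every replicate of the entire glands, as did 27.1% of all genes. For Tif-IA the groups nearly met, with 27.6 CPM in PP-replicate 2 and 27.4 CPM in lglRNAi;RasV12-replicate 2. The median log2 fold change of the 8 was 0.83, beside 0.00 over all genes. The highest was that of nop5, 1.11 (SE 0.26, adjusted p = 0.00663 by edgeR's test), the 1 member past the 2-fold limit (8.21% of all genes). Ns1 (0.91, SE 0.10), Nop60B (0.92, SE 0.23), pit (0.89, SE 0.19), Nopp140 (0.77, SE 0.19), Fib (0.75, SE 0.24) and Nop56 (0.69, SE 0.19) followed, and Tif-IA with 0.54 (SE 0.23) was not called (adjusted p = 0.0837 by edgeR's test). Without lglRNAi;RasV12-replicate 1, which had the lowest level of all 8 genes in its group, 5 members were called and Fib and Nop56 were not (adjusted p = 0.0934 and 0.0529 by edgeR's test). Fib was also not called without lglRNAi;RasV12-replicate 2 or without any 1 of the PP-replicates. In the fits on TPM 4 were called (nop5, Nop60B, pit and Ns1).

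Compared to RasV12-glands, 3 members were called higher in the PP, namely Myc, Tif-IA and Ns1, where 20.4% of all genes were higher, and none was lower (17.1% of all genes). The log2 fold change was 0.78 (SE 0.23, adjusted p = 0.0213) for Tif-IA and 0.64 (SE 0.10, adjusted p = 0.000482) for Ns1 by edgeR's test. The other 6 nucleolar genes had values between 0.28 (Nop56) and 0.53 (Fib). No member passed the 2-fold limit, which 8.70% of all genes did. Without RasV12-replicate 3, 7 members were called, nop5, Nopp140, Nop60B and pit being added. Tif-IA was not called when RasV12-replicate 1, RasV12-replicate 2 or PP-replicate 3 was left out. The 3 comparisons of the PP share its 3 libraries.

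The nucleolar genes moved together within groups as well. Of the 3 w1118-replicates, replicate 1 was lowest in 8 of 8 nucleolar genes, of the lglRNAi;RasV12-replicates also replicate 1 in 8 of 8, and of the RasV12-replicates replicate 2 was lowest and replicate 3 highest in 8 of 8. In the PP, no single replicate was lowest or highest in more than 4 of them. Sgs3, a glue protein gene that is switched on in the secretory cells late in larval life, was at 192539 CPM in w1118-replicate 1 against 116394 and 129806 CPM in the other w1118-replicates, and at 28200 CPM in RasV12-replicate 3 against 47650 and 36277 CPM in replicates 1 and 2. In lglRNAi;RasV12-glands it did not go along, with 42140 CPM in replicate 1 against 45970 and 49614 CPM. The part of glue gene level in the spread of the nucleolar genes was not tested. As a description over the 12 libraries, the 28 pairs among the 8 nucleolar genes had Pearson's r between 0.65 and 0.98 (median 0.87) on log2(CPM + 1), whereas Myc had r between -0.16 (nop5) and 0.51 (Tif-IA) with them (median 0.00). The libraries fall into 4 groups and share depth and scaling, so that no p is given.

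**Figure D3:**
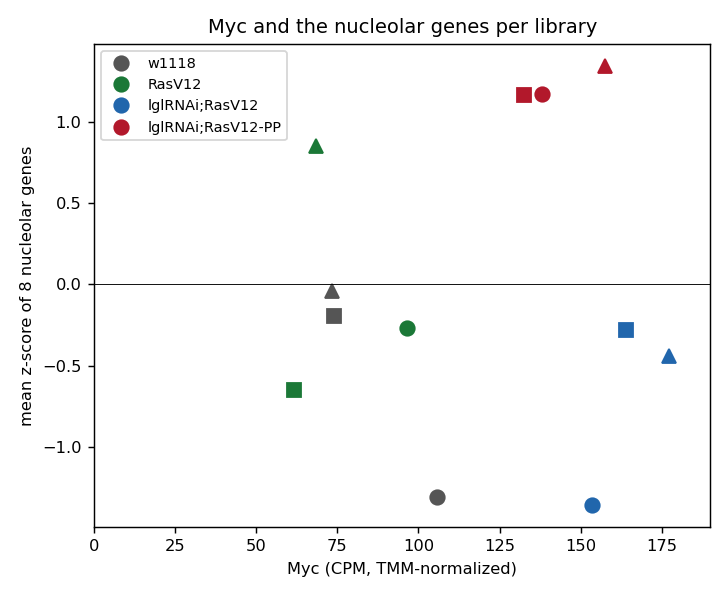
Myc in TMM-normalized CPM (x axis) and the mean z-score of the 8 nucleolar genes on log2(CPM + 1) (y axis) in each of the 12 libraries. Colours mark groups and symbols replicates 1, 2 and 3. The PP-replicates lie between 1.17 and 1.34 on the y axis and the libraries labelled lglRNAi;RasV12 between -1.35 and -0.28 at comparable levels of Myc, and RasV12-replicate 3 reaches 0.85 with 68.4 CPM of Myc.

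By the same measure, the genes outside the members whose pattern was most like that of Myc were Socs16D (r = 0.95), CLIP-190 (0.95), CG17359 (0.94), CG1764 (0.94) and chinmo (0.93), over 12 libraries. Of these, chinmo encodes a BTB zinc finger transcription factor, and its mean ± SD (n = 3) was 72.9 ± 21.0 CPM in the controls, 84.7 ± 31.7 CPM with RasV12 alone, 192 ± 7.41 CPM in entire glands with both constructs and 142 ± 46.9 CPM in the PP. CLIP-190, a microtubule-binding protein, was at 297 ± 14.2, 297 ± 11.5, 396 ± 21.0 and 387 ± 42.1 CPM in the same order. The genes most like the mean of the 8 nucleolar genes were FBgn0022288 (r = 0.97), Nap1 (0.97), Ak6 (0.97), NO66 (0.96) and l(1)G0020 (0.96). Nap1, a histone chaperone, was at 128 ± 12.3 CPM in the controls, 145 ± 16.7 CPM with RasV12 alone, 125 ± 8.92 CPM in entire glands with both constructs and 183 ± 7.19 CPM in the PP. NO66, a nucleolar protein, was at 17.3 ± 3.03, 21.1 ± 4.43, 17.7 ± 0.66 and 28.0 ± 1.01 CPM in the same order. These genes were picked for their likeness, and their levels are a description.

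The other genes of the same machinery were taken from lists of box C/D snoRNP proteins, box H/ACA snoRNP proteins, RNA polymerase I, nucleolar RNA helicases and ribosomal subunit assembly factors. The lists hold 60 genes, 53 of them besides the members, and all were tested. Like the members, the lists were chosen with earlier results of these data known. In the PP, 52 of these 53 genes were called higher and 0 lower than in entire lglRNAi;RasV12-glands (median log2 fold change 0.77), and 38 were higher and 0 lower than in w1118-glands (median 0.60). With RasV12 alone, 9 were higher and 5 lower than in the controls (median 0.04), and with both constructs 6 were higher and 11 lower in entire glands (median -0.19). The share of listed genes called in the PP thus lay above the 20.0% and 33.5% of all genes, and in RasV12-glands the shares called lay below the 25.8% higher and 23.1% lower of all genes. With both constructs, the share called higher lay below the 28.2% of all genes and the share called lower was near the 23.5% of all genes. The direction in the PP was kept under every alternative, with 34 to 59 of all 60 genes higher than in entire glands of the genotype, 36 to 60 higher than in the controls, and none lower. In the entire glands it was not, since with library size in place of TMM 30 of the 60 genes were higher and 1 lower with RasV12 alone, and 17 higher and 0 lower with both constructs. In the fits on TPM, 48 and 47 were higher with RasV12 alone and 36 and 35 with both constructs.

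**Figure D4:**
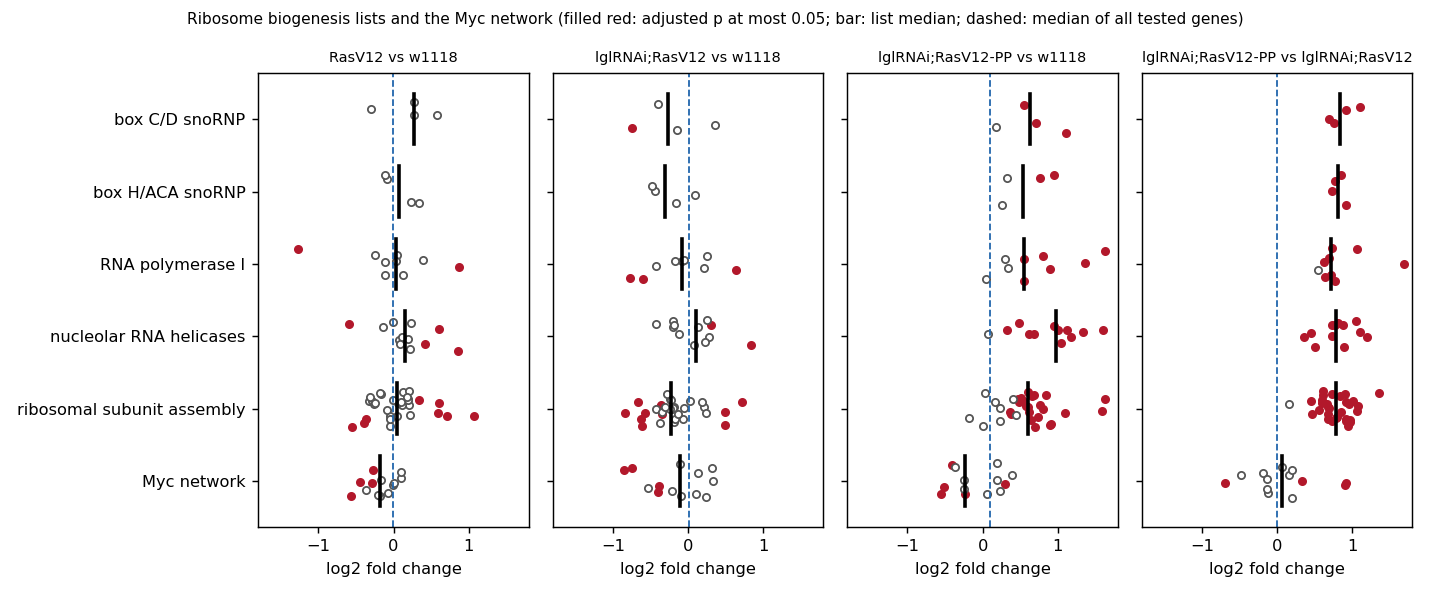
Log2 fold changes (x axes) of the genes in each list (y axis, 1 point per gene, members included) in 4 comparisons. Filled red points have an adjusted p of at most 0.05, black bars are list medians and the dashed line is the median of all tested genes. In the panel of the PP against entire lglRNAi;RasV12-glands, 58 of the 60 points of the nucleolar lists are red and to the right of 0, while the Myc network spreads to both sides.

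Among the box C/D proteins, the member Fib had the highest log2 fold change in each of the 3 comparisons with w1118-glands and hoip, a small RNA-binding protein of these snoRNPs, the lowest. The value of hoip was -0.31 with RasV12 alone, -0.75 with both constructs, which was called, and 0.17 in the PP. Of the box H/ACA core proteins, Gar1 was highest (0.34, 0.09 and 0.94 in the same order, the last called) and Nop10 lowest (-0.12, -0.48 and 0.25, none called). In both snoRNP lists, 4 of 4 genes were called higher in the PP than in entire glands of the same genotype.

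For RNA polymerase I, its second-largest subunit Polr1B was called higher in both entire glands (0.87 with RasV12 alone, 0.64 with both constructs) and in the PP (1.36). There the small subunit Polr1H was highest (1.63, SE 0.46), at low mean levels of 0.59 CPM in w1118-glands and 1.87 CPM in the PP. The lowest were TAF1B, a component of the promoter selectivity factor, in RasV12-glands (-1.28, called) and in the PP (0.04, not called), and Polr1D, a subunit shared with RNA polymerase III, in entire lglRNAi;RasV12-glands, whose value of -0.77 was called, but not with the replicate block (adjusted p = 0.0742 by edgeR's test). Of 9 listed genes, 6 were higher in the PP than in w1118-glands and 8 than in entire lglRNAi;RasV12-glands, Tif-IA being the exception.

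Of the 5 lists, that of helicases had the highest median in the PP against w1118-glands (0.98), with 11 of 12 genes called higher. All 12 of 12 were higher than in entire lglRNAi;RasV12-glands (median 0.79). Ddx56 was highest in entire glands with both constructs (0.83, called) and in the PP (1.60, called), Dbp73D in RasV12-glands (0.85, called), and CG5800 was lowest in all 3 comparisons with w1118-glands (-0.59, called, with RasV12 alone, then -0.43 and 0.07), the second of which was called with the replicate block (-0.45, adjusted p = 0.0373 by edgeR's test). Of 31 assembly factors, 23 were higher in the PP than in w1118-glands and 30 than in entire lglRNAi;RasV12-glands. Ns4, of the same GTPase family as Ns1, was highest in RasV12-glands (1.07, called) and differed from the other assembly factors in the PP, where its log2 fold change to entire lglRNAi;RasV12-glands was 0.16 and not called and that to RasV12-glands was -0.42 and called. Non1 was highest in entire glands with both constructs (0.72) and in the PP (1.62), both called. The lowest were Noc2, known in yeast for the assembly of the large subunit, in RasV12-glands (-0.55, called), CG4866 in lglRNAi;RasV12-glands (-0.84, called) and eIF6, which keeps large subunits from joining early, in the PP (-0.19, not called).

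Of the 13 listed partners and regulators of Myc, 0 were called higher and 4 lower than in w1118-glands in each of the 2 groups of entire glands, and 1 was higher and 4 lower in the PP, with medians between -0.24 and -0.11. Of all genes, a comparable share was called lower (23.1%, 23.5% and 25.2% for RasV12 alone, both constructs and the PP). The share of all genes called higher (25.8%, 28.2% and 33.5% in the same order) lay above that of the list each time. With the replicate block, 1 was higher with both constructs. With library size in place of TMM, 5 to 7 were higher and at most 2 lower, and in the fits on TPM 10 were higher with RasV12 alone, 9 with both constructs and 6 in the PP, and 0 lower. Max, the dimerization partner of Myc, had the lowest value with RasV12 alone (-0.56) and in entire glands with both constructs (-0.85), both called, and was 0.05 in the PP, where it was called higher than in entire lglRNAi;RasV12-glands (0.90). The splicing factor hfp, known in the fly as a repressor of Myc transcription, was lowest in the PP (-0.55, called). The highest values belonged to the translational regulators brat, in RasV12-glands (0.11) and in the PP (0.39), and mei-P26, in lglRNAi;RasV12-glands (0.33), none of them called.

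Markers of other cell types and of the gland itself differed between the PP and the entire glands. The 3 markers of the salivary duct (trh, eyg and Ser) summed to between 83.2 and 93.5 CPM in the PP, 39.0 and 47.5 CPM in the entire glands labelled lglRNAi;RasV12, 38.4 and 46.3 CPM with RasV12 alone and 56.6 and 83.1 CPM in the controls, and 3 of 3 were called higher in the PP than in entire glands of its genotype. The 6 hemocyte markers summed to between 24.5 and 48.0 CPM, 11.1 and 37.5 CPM, 10.04 and 13.8 CPM, and 12.8 and 25.8 CPM in the same order, and 0 of 6 were called in the PP against entire lglRNAi;RasV12-glands and 5 of 6 against RasV12-glands. The 6 fat body genes, of which 5 were called lower in the PP than in entire glands of its genotype, summed to between 7681 and 8889 CPM, 25155 and 33572 CPM, 16860 and 26118 CPM, and 40364 and 84937 CPM in this order. The 9 genes of secretory cells, mostly glue genes, summed to between 43084 and 50459 CPM, 88093 and 101778 CPM, 80940 and 99497 CPM, and 271752 and 434019 CPM in this order. Glue gene transcripts were thus abundant in each group. In the PP, 8 of the 9 genes were called lower and 1 higher than in w1118-glands. Compared to entire lglRNAi;RasV12-glands, 7 were lower and 0 higher. Outside the glue genes, sage was at 1439 CPM on average in w1118-glands and 385 CPM in the PP. CrebA was at 899 and 352 CPM, and fkh at 247 and 333 CPM, in these 2 groups. The 4 muscle markers summed to between 12.3 and 70.6 CPM in the PP, and none of them was called there. None of the markers was at 0 in all libraries, and the part of these tissues in the levels of Myc and the nucleolar genes was not tested.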

How the data were processed

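Poly(A)-selected libraries were made from 12 samples, and the authors assigned the paired-end reads with kallisto 0.44.0 to the transcripts of FlyBase release 6.19. The deposited estimated counts are expected counts per transcript without normalization, and the deposited TPM are scaled per library to 1000000. Of 30503 transcripts, 30279 were matched by identifier to the Ensembl annotation of dm6, and the other 224 (0.197% to 0.359% of the counts) were left out. Counts were summed per gene and rounded. All 12 libraries were fitted with edgeR 4.0.16 in R 4.3.3 (TMM, a minimum count of 10 by group, quasi-likelihood test, Benjamini-Hochberg adjustment over 9012 genes in each of 6 comparisons), after the code was tested on simulated data. The study's own test, sleuth, was not rerun here. Counts of changes of at least 2-fold are of genes with a log2 fold change of at least 1 and an adjusted p of at most 0.05. Alternatives were library size or RLE in place of TMM, DESeq2 1.42.0, no filter, limma 3.58.1 on log2(TPM + 0.1) and log2(TPM + 1), a replicate block, a fit of the 2 groups compared and leaving out each library. Where this leaves 2 replicates, the shared spread of all groups was used.

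The members and lists were chosen with earlier results of these data known. All members are described, each list by its counts and by the genes highest and lowest in each comparison with w1118-glands, and 5 genes each by likeness to Myc and to the nucleolar mean. Further singly named values in other comparisons (Ns4, Max, Tif-IA) were chosen after their values were seen. Samples were grouped by their titles. Replicates share the numbers 1 to 3 there, but the file names of the PP carry other numbers, so that its pairing is uncertain. Residuals of same-numbered libraries had r between 0.119 and 0.211 for RasV12- and w1118-glands and between 0.177 and 0.218 for lglRNAi;RasV12- and w1118-glands. In these 2 comparisons the numbers were taken to pair the samples. Between lglRNAi;RasV12- and RasV12-glands, however, only 1 of 6 libraries correlated best with its own number. The reported fits hold no replicate block, so that their SE and p-values leave the pairing out. The block was fitted as an alternative only. The block spanned all 12 libraries, the PP with its uncertain pairing included, and no fit paired the 2 groups of 1 comparison alone. In these 2 comparisons the block changed the call of no member, which cannot show what pairing 2 groups alone would give. With both constructs, it changed the calls of Polr1D and CG5800 among the named list genes and added 1 gene called higher to the Myc list. In the other 4 comparisons r was between -0.321 and 0.332. The smallest exact two-sided p for 3 against 3 is 0.1, and no such test is given. Intervals are SE or SD and cover the spread between replicates.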

Additional observations from a re-analysis of the deposited data

How the results depend on the processing

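Of 432 values of the members under alternatives that kept all libraries, 369 kept their direction and their side of the threshold, 32 gained a call, 10 lost it and 21 changed sign. When 1 library was left out, 282 of 324 did so, 7 gained a call, 26 lost it and 9 changed sign. No member that was called in the reported fits changed sign. Of the sign changes, 7 were called under the alternative, namely Myc in RasV12-glands in both TPM fits, and in lglRNAi;RasV12-glands Nop56 in both TPM fits and Ns1 in these and with library size, which the gained calls leave out. The cause was not tested.

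With library size in place of TMM, 4443 of all genes were above and 830 below the controls with RasV12 alone, 4357 and 775 in entire glands with both constructs and 5149 and 1069 in the PP. Members higher were then 5 with RasV12 alone and 4 with both constructs. On log2(TPM + 0.1) with limma, the counts were 5658 and 502 (9 members higher), 5884 and 414 (5 members) and 5442 and 916, and on log2(TPM + 1) they were 5576 and 489 (9 members), 5813 and 414 (5 members) and 5368 and 879. Neither kind of TPM fit is TMM-normalized. For lglRNAi;RasV12-glands against RasV12-glands, 832 genes were lower with DESeq2, among them 1 member (Ns1), and 222 and 252 in the 2 TPM fits. For the PP against entire lglRNAi;RasV12-glands, the TPM fits gave 1035 genes higher and 2605 lower, and 1098 higher and 2624 lower, with 4 members higher in each, and for the PP against RasV12-glands 1203 genes higher on log2(TPM + 0.1).

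The members that changed sign did so in comparisons with w1118-glands. In RasV12-glands the log2 fold change of Myc became 0.28 with library size and 0.51 and 0.48 in the TPM fits. In lglRNAi;RasV12-glands, those with library size and the 2 TPM fits were 0.25, 0.61 and 0.56 for Nop56, 0.0012, 0.37 and 0.33 for nop5, 0.12, 0.43 and 0.39 for Nopp140, 0.23, 0.59 and 0.56 for Nop60B, 0.20, 0.55 and 0.47 for pit and 0.33, 0.68 and 0.62 for Ns1. Of 264 values of the listed genes named by rule, 26 changed sign. In RasV12-glands these were hoip (0.12, 0.38 and 0.36) and Nop10 (0.30, 0.61 and 0.58) in the same order, and in the TPM fits CG5800 (0.062 and 0.052), Noc2 (0.099 and 0.088) and Max (0.17 and 0.16). In the TPM fits for lglRNAi;RasV12-glands they were hoip (0.0014 in both), Nop10 (0.23 and 0.22) and CG5800 (0.29 and 0.24). In the PP, eIF6 became 0.28 with library size and 0.38 and 0.37 in the TPM fits, hfp 0.028 and 0.027 in the TPM fits, and TAF1B -0.019 with RLE, -0.027 with DESeq2 and -0.020 in the fit of the 2 groups compared.

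When each library was left out in turn, members higher ranged from 0 to 1 in RasV12-glands, from 5 to 8 in the PP against w1118-glands and from 2 to 7 in the PP against RasV12-glands, and in lglRNAi;RasV12-glands against RasV12-glands 304 to 516 of all genes were higher and 200 to 342 lower. The log2 fold changes in RasV12-glands ranged from -0.38 to 0.033 for Myc, -0.087 to 0.44 for nop5, -0.16 to 0.18 for Nopp140, -0.063 to 0.39 for Nop60B, -0.22 to 0.19 for Tif-IA, -0.044 to 0.34 for pit and -0.33 to 0.059 for Nop10. In lglRNAi;RasV12-glands they ranged from -0.32 to 0.0082 for Nop56 and from -0.16 to 0.30 for Gar1, and in the PP from -0.022 to 0.16 for TAF1B.

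With the replicate block, 6 members instead of 3 were higher in the PP than in RasV12-glands and 8 instead of 7 than in entire lglRNAi;RasV12-glands, in comparisons where same-numbered residuals correlated between -0.147 and -0.0556 and between -0.211 and -0.0907 and 0 of 6 libraries correlated best with their own number. The block, fitted over all 12 libraries, changed no call of a member in the other 4 comparisons. For RasV12- and lglRNAi;RasV12-glands against w1118-glands, 6 of 6 libraries correlated best with their own number.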
